A study of Mus musculus with 36 samples.

Results

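The Reg genes measured here, Reg1, Reg2, Reg3a, Reg3b and Reg3g, encode small secreted proteins with a C-type lectin fold. Their members are the probe sets annotated to 1 of these symbols, which are 11 of the 36701 probe sets tested and stand for 5 of 15964 genes. Array set A held 10 of them, 2 for each gene, and array set C held 1 more for Reg2. The series followed gene expression along the intestine of 8-week-old male CD-1 mice, an outbred strain, fed standard chow. The 4 groups were the colon, taken whole, the ileum next to the caecum, the jejunum, cut from the mid small intestine, and the duodenum next to the stomach. Each group had 3 samples, each of them RNA pooled from 10 mice and hybridised to array sets A, B and C, and the labels do not say that equal pool numbers in different segments are the same mice. A pool averages its mice, so differences between single mice could not be seen, and p-values measure the spread between pools. Because whole tissue was used, fewer cells of a type and less RNA per cell cannot be told apart.

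Reg proteins bind carbohydrates of bacterial walls or act on host cells. Reg3g and Reg3b are antibacterial lectins that enterocytes and Paneth cells secrete into the gut lumen, and their genes are known to respond to bacteria through Toll-like receptors with the adaptor MyD88 and to the cytokine IL-22 through the transcription factor STAT3. Reg1 and Reg2 are best known as products of the acinar cells of the exocrine pancreas and are named for their rise during regeneration of the islets.

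In the RefSeq gene table the family forms a cluster on mouse chromosome 6, in the order Reg3b, Reg3d, Reg3a, Reg2, Reg1 and Reg3g, with 1 pseudogene between Reg1 and Reg3g. The 150 bases before each annotated start are shown because neighbouring genes of this cluster differed in where along the gut they were measured. They are RefSeq sequences of build GRCm38.p6, printed 5′ to 3′ on the strand of the gene. Capitals mark the letters TATAAA and, in Reg3b, a match to TTCNNNGAA, the palindrome that STAT factors bind.
Reg1, chr6:78425833-78425982, plus strand: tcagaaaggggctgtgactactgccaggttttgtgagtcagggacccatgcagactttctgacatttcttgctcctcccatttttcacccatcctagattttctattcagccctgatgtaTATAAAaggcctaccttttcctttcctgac
Reg2, chr6:78405005-78405154, plus strand: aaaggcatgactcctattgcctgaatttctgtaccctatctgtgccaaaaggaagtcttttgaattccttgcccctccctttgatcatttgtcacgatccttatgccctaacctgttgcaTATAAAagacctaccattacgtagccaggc
Reg3a, chr6:78380559-78380708, plus strand: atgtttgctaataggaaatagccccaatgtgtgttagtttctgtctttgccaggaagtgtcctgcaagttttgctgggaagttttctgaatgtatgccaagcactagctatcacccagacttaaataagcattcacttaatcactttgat
Reg3b, chr6:78370735-78370884, plus strand: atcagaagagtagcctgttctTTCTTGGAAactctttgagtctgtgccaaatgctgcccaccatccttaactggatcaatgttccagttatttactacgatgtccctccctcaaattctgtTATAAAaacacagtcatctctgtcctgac
Reg3g, chr6:78468875-78469024, minus strand: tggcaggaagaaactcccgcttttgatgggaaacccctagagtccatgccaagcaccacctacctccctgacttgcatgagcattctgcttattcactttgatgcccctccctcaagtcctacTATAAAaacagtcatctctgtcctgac

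Reg1, Reg2, Reg3b and Reg3g had TATAAA on their own strand, beginning 30, 30, 29 and 27 bases before the start. Of 32851 promoters in the table, 7.59% held it on the gene strand within 250 bases and 12.4% on either strand, and no match was found in Reg3a on either strand. The letters TTCNNNGAA, which read the same on both strands, were found in 1 of 5 Reg promoters and in 7.02% of all promoters, and in Reg3b they began 129 bases before the start. TTTATG, read by Cdx factors, was found in Reg3b (10.8% of all promoters, either strand), and GATAA, read by GATA factors, in Reg1 and Reg3b (22.6%). A match describes the letters and is not evidence of binding. After pairwise alignment of these windows the Reg3b and Reg3g promoters were the most alike, with 68.4% identical columns, and Reg1 and Reg2 shared 56.8%, while the other 8 pairs shared 37.5% to 51.9%.

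The 5 genes had 4 different profiles along the intestine. Reg1 and Reg2 were highest in the duodenum, and Reg3a was highest in the jejunum and below the array median in the colon. The Reg3g means were highest in the ileum and lowest in the colon. For Reg3g, colon minus duodenum did not pass at either probe set, and ileum minus jejunum passed at 96064_at only. No difference between segments passed the test for Reg3b. In the test for any difference among segments, 8 of 11 Reg probe sets passed an adjusted p of 0.05, where 8.82% of all probe sets did. The exceptions were both Reg3b probe sets (adjusted p = 0.664 and 0.101) and 1 of the 3 for Reg2 (0.742). These and all adjusted p-values below come from limma, fitted to log2 of the intensity plus 16 over all 12 pools, with Benjamini-Hochberg adjustment over all probe sets tested. All tests were 2-sided.

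**Figure D1:**
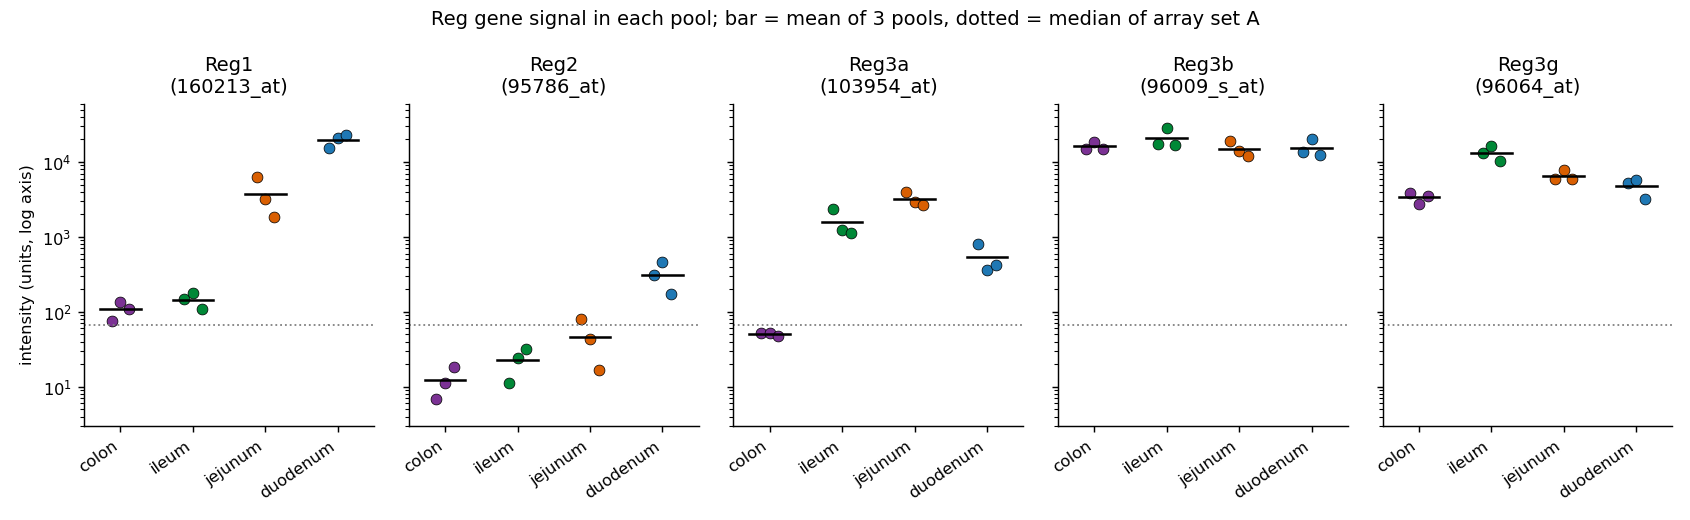
Intensity (log axis, units) of the brightest probe set of each Reg gene in the 3 pools of colon, ileum, jejunum and duodenum. Points are pools, black bars are means of 3 pools, and the dotted line is the median of all values of array set A, 66.3 units. Reg1 spans 76.1 to 22689 units, whereas every Reg3b pool lies between 11973 and 27982.

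Reg1 gave 76.1, 137 and 110.5 units in the colon pools and 147, 177 and 108 in the ileum pools. The jejunum pools had 6357, 3170 and 1823 units, against 15555, 20973 and 22689 in the duodenum pools. The colon and ileum pools overlapped with each other, every jejunum pool lay above them, and every duodenum pool lay above the jejunum. The log2 difference (± standard error) was -2.54 ± 0.34 for jejunum minus duodenum (adjusted p = 0.000922) and -4.41 ± 0.34 for ileum minus jejunum (adjusted p = 3.95e-06). For colon minus ileum it was -0.38 ± 0.34 (adjusted p = 0.787), with a 95% interval from -1.10 to 0.35. Its promoter is the first sequence above, with TATAAA at the same distance from the start as in Reg2. The second Reg1 probe set, 162312_f_at, was dim, with 9.97 ± 6.57 units in colon, 4.70 ± 4.09 in ileum, 52.0 ± 32.5 in jejunum and 113 ± 9.35 in duodenum (mean ± SD over 3 pools, as in all means below), and it followed the first with r = 0.955 over the 12 pools. For jejunum minus duodenum it did not pass the test (log2 -1.02 ± 0.35, adjusted p = 0.249).

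The jejunum pools of Reg1 differed more than those of any other segment, with a coefficient of variation of 61.5% against 18.9% in the duodenum. Jejunum pool 1 was the highest of the 3, and it also differed from the other two in its 18S ribosomal RNA control. On array set A that control read 201 to 1541 units in jejunum pools 2 and 3 and ileum pools 1 and 3, against 5772 to 20058 in the other 8 samples, and its part in the Reg1 values was not tested. Among those 8 samples, which leave 1 jejunum pool, assumed to vary like the other groups, the difference from the duodenum was -1.61 and did not pass (adjusted p = 0.0753). Blocking on the 18S class gave -1.93 (adjusted p = 0.0118).

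Reg2 was highest in the duodenum. Its probe set 95786_at gave 6.90, 11.2 and 18.5 units in the colon pools, 11.1, 24.4 and 31.7 in the ileum pools, and 79.7, 43.9 and 16.6 in the jejunum pools, against 307, 461 and 175 in the duodenum pools. Only the duodenum pools all lay above the median of the array set, and all of them exceeded every pool of the other segments. Jejunum minus duodenum was -2.43 ± 0.43 (adjusted p = 0.0110), ileum minus duodenum -3.05 ± 0.43 (adjusted p = 0.000824) and colon minus duodenum -3.47 ± 0.43 (adjusted p = 8.83e-05). The call against the jejunum was lost without jejunum pool 3 (-2.03, adjusted p = 0.0717), without duodenum pool 2 (-2.12, adjusted p = 0.0726) and when the 18S class was blocked (-2.01, adjusted p = 0.121), and adjusted p reached 0.448 within the 8 samples of high 18S.

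The Reg2 probe set on array set C, 165408_f_at, was also highest in the duodenum. It gave 209, 143 and 52.6 units in the colon pools, 13.8, 55.3 and 22.7 in the ileum pools, and 15.9, 52.6 and 14.3 in the jejunum pools, against 590, 1566 and 236 in the duodenum pools. Unlike 95786_at, it was higher in the colon than in the jejunum by group means, though the lowest colon pool and the highest jejunum pool had the same value (log2 1.74 ± 0.66, adjusted p = 0.143). Jejunum minus duodenum was -3.94 ± 0.66 (adjusted p = 0.0101, 0.0583 without jejunum pool 3 and up to 0.221 over the alternatives run), and colon minus duodenum was -2.21 ± 0.66 (adjusted p = 0.0735). The array of duodenum pool 3 in this set is named jejunum in one label field and duodenum in its title, and was kept as duodenum. On that array set every duodenum pool had at least 21071 units of the stomach gene Gkn3 and 13113 of the pancreas gene Cpa1, against at most 173 and 41.9 in the jejunum pools. Without the array of duodenum pool 3 the differences were -4.60 for jejunum (adjusted p = 0.00326) and -2.86 for colon (adjusted p = 0.0190). The third Reg2 probe set, 161302_r_at, built with relaxed probe selection, passed no comparison, and its correlations with the other two were -0.0842 and -0.0854 over 12 pools.

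The duodenum samples also carried transcripts of the exocrine pancreas, the tissue in which Reg1 and Reg2 are best known. Of 21 measured pancreas genes, 15 fell and 0 rose in jejunum against duodenum, where 1.50% of all 15964 genes passed in either direction. Their median log2 difference was -5.21, against -0.05 for all genes. The summed signal of the 21 genes was 2761 to 5413 units in colon, 2561 to 4393 in ileum and 2632 to 4142 in jejunum, against 135051 to 138220.1 in duodenum. Among them were the elastase Cela3b, with 23.7 ± 6.24 units in colon, 17.0 ± 5.72 in ileum, 32.3 ± 8.58 in jejunum and 15648 ± 1054 in duodenum, and the lipase Cel, with 103 ± 40.3 units in jejunum and 7396 ± 954 in duodenum. Some stomach transcripts moved with them: of 10 measured stomach genes, 4 were lower in jejunum than in duodenum (Tff2, Gkn3, Gkn2 and Tff1). Of the 10, 0 were higher and the rest did not pass. The summed stomach signal was 982 to 1167 units in colon, 832 to 1116 in ileum and 1019 to 1452 in jejunum, against 51057 to 71350.2 in duodenum. Its largest duodenal parts were Gkn3, at 32249 ± 13087 units, and the trefoil peptide gene Tff2, at 18749 ± 3313. In jejunum Tff2 averaged 14.9 ± 14.8 units.

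Between ileum and jejunum, where Reg1 differed, 0 of the 21 pancreas genes passed limma's test (2 at an unadjusted p below 0.05) and 4.48% of all genes did. Their median difference was -0.0028, against 0.08 for all genes, and whether Reg1 differed from them was not tested. Reg1 in the jejunum stood at 19.2% of its duodenal mean. The 15 pancreas genes that fell stood at 0.0715% to 23.9% (median 1.18%), with 14 of them below Reg1. The 1 above it was the lipase cofactor Clps, which is named after its value was seen. The Clps pools had 946 to 1168 units in jejunum, above those of ileum (580 to 848) and colon (237 to 458). In colon against jejunum, 1 pancreas gene was lower, Clps (-1.47 ± 0.22, adjusted p = 0.000313), and 3 were higher (14.4% of all genes passed). Of all 21, including 6 that did not pass between jejunum and duodenum, 7 stood above Reg1. Reg2 stood at 14.9% by 95786_at and 3.46% by 165408_f_at. The share of the duodenal Reg1 and Reg2 signal that came from pancreatic tissue was not tested.

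**Figure D2:**
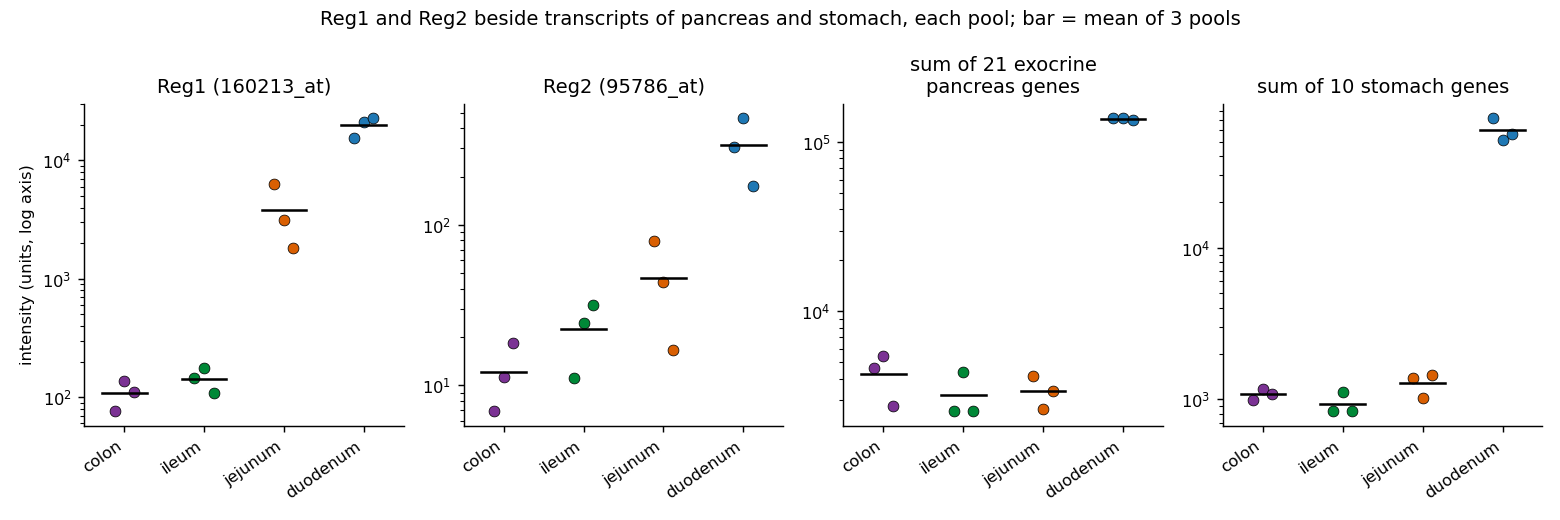
Intensity (log axes, units, one scale per panel) of Reg1, Reg2, and the sums over 21 exocrine pancreas genes and 10 stomach genes in each pool, with bars at the mean of 3 pools. Pancreas and stomach sums are high in the duodenum only. The 3 jejunum pools of Reg1, at 1823 to 6357 units, lie above all its colon and ileum pools. A sum can hide the course of single genes.

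Reg3a, a family member close to Reg3b and Reg3g in sequence, had its highest mean in the jejunum and its lowest in the colon. Its probe set 103954_at gave 51.4, 52.9 and 47.8 units in the colon pools and 2368, 1231 and 1115 in the ileum pools. The jejunum pools had 3936, 2898 and 2636 units, against 815, 359 and 426 in the duodenum pools. The 4 segments did not overlap with each other, and the colon pools lay below the array set median of 66.3 units. Jejunum minus duodenum was 2.60 ± 0.30 (adjusted p = 0.000191), ileum minus jejunum -1.06 ± 0.30 (adjusted p = 0.0778) and colon minus ileum -4.49 ± 0.30 (adjusted p = 1.47e-07).

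For 103954_at, the fall in the colon and the higher jejunum than duodenum were called under all alternatives run, and the place of the ileum between jejunum and duodenum was not. Ileum minus duodenum was 1.54 ± 0.30 (adjusted p = 0.0115) and was lost without ileum pool 1 (1.20, adjusted p = 0.0565), without duodenum pool 2 (1.31, adjusted p = 0.0709), without duodenum pool 3 and when the 18S class was blocked (1.57, adjusted p = 0.0579), and adjusted p reached 0.179 over the alternatives run. Ileum minus jejunum passed without ileum pool 1 (-1.40, adjusted p = 0.0239). The second probe set, 161642_f_at, had 10.5 ± 9.88 units in colon, 551 ± 361 in ileum, 1744 ± 407 in jejunum and 191 ± 137 in duodenum, and r = 0.987 with the first. It placed the ileum below the jejunum (-1.78 ± 0.45, adjusted p = 0.0474), a call that was lost in most alternatives run. Ileum minus duodenum did not pass at this probe set (1.48 ± 0.45, adjusted p = 0.146), and the pools of these segments overlapped.

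Reg3g, which kills Gram-positive bacteria, was highest in the ileum. Its probe set 96064_at gave 3888, 2783 and 3550 units in the colon pools and 13104, 16247 and 10395 in the ileum pools. The jejunum pools had 5907, 7851 and 5935 units, against 5220, 5775 and 3176 in the duodenum pools. Every ileum pool exceeded every other pool, and the colon pools overlapped with those of the duodenum only. Colon minus ileum was -1.94 ± 0.24 (adjusted p = 0.000100), ileum minus duodenum 1.51 ± 0.24 (adjusted p = 0.00217) and ileum minus jejunum 1.00 ± 0.24 (adjusted p = 0.0346).

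Colon minus jejunum for Reg3g was -0.94 ± 0.24 (adjusted p = 0.0187), a call lost without colon pool 2, colon pool 3 or jejunum pool 2 (log2 -0.98 to -0.81, adjusted p = 0.0504 to 0.0945), with quantile normalization (-0.72, adjusted p = 0.0836) and within the 8 samples of high 18S (-0.80, adjusted p = 0.258). Of the other comparisons, jejunum minus duodenum (0.51 ± 0.24, adjusted p = 0.450) and colon minus duodenum (-0.44 ± 0.24, adjusted p = 0.395) did not pass. Relative to the medians of the arrays, which differed by 0.28 on the log2 scale between ileum and jejunum on array set A, the ileum exceeded the jejunum by 0.72 (adjusted p = 0.228). That call was also lost without any 1 of ileum pools 1 and 2, jejunum pools 1 and 3 and colon pool 3 (log2 0.84 to 1.00, adjusted p = 0.0505 to 0.139), and adjusted p reached 0.301 over all alternatives run. The second probe set, 162187_f_at, had 603 ± 101 units in colon, 2132 ± 401 in ileum, 1383 ± 464 in jejunum and 822 ± 163 in duodenum, and r = 0.967 with the first. It showed the fall in the colon as well (colon minus ileum -1.79 ± 0.23, adjusted p = 0.000178), while ileum minus jejunum did not pass (0.65 ± 0.23, adjusted p = 0.185).

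Reg3b, also called pancreatitis-associated protein, was strong in every segment. Its probe set 96009_s_at gave 14952, 18660 and 14716 units in the colon pools and 17130, 27982 and 16789 in the ileum pools. The jejunum pools had 19136, 14137 and 11973 units, against 13652, 20271 and 12223 in the duodenum pools. All 4 segments overlapped, the highest segment mean was 1.37 times the lowest at this probe set, and the ileum mean was 20634 units. That peak ranked 13 in array set A, and whether signal stays proportional at this level was not tested. Over the 6 comparisons of segment pairs, the 95% intervals of the log2 difference reached at most -0.87 on the low side (colon minus ileum) and 0.99 on the high side (ileum minus jejunum), so differences up to this size are within the error. The second probe set, 161890_f_at, was also bright, with 6933 ± 1246 units in colon, 8316 ± 879 in ileum, 4761 ± 2191 in jejunum and 3947 ± 1743 in duodenum. At this probe set the highest segment mean was 2.11 times the lowest. Its ileum and colon pools lay above those of the duodenum, and its ileum pools also above those of the jejunum. Ileum minus duodenum (1.19 ± 0.34, adjusted p = 0.118) and colon minus duodenum (0.92 ± 0.34, adjusted p = 0.159) did not pass. Nor did ileum minus jejunum (0.89 ± 0.34, adjusted p = 0.227). The correlation of 161890_f_at with the first was r = 0.535.

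**Figure D3:**
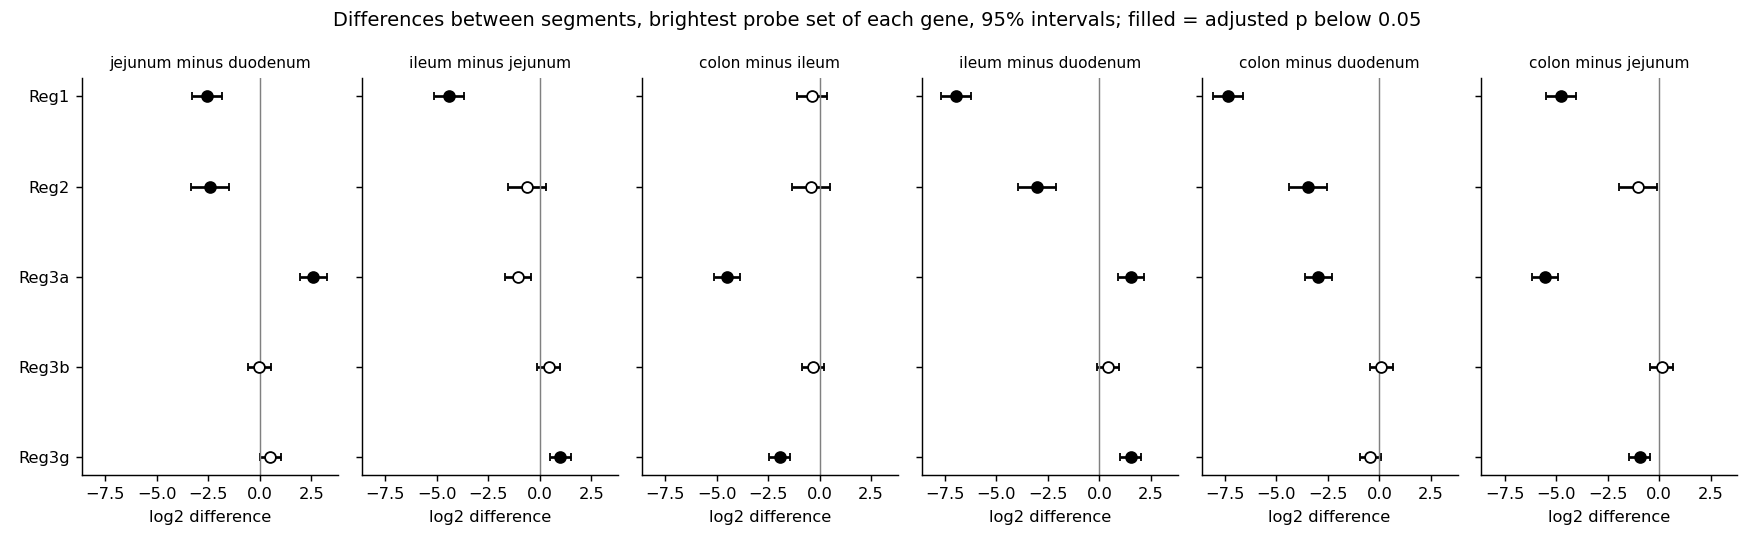
Log2 differences between segments for the brightest probe set of each Reg gene, with 95% intervals, filled where the adjusted p was below 0.05. Reg3b intervals include 0 in all 6 panels, whereas Reg1 spans -7.33 (colon minus duodenum) to -0.38 (colon minus ileum).

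Counted over all Reg probe sets, jejunum minus duodenum gave 2 higher and 3 lower of 11 (of all probe sets 0.343% were higher and 0.58% lower, 0.924% in all). Ileum minus jejunum gave 1 higher and 3 lower (1.61% and 1.17% of all, 2.78% together), and ileum minus duodenum gave 3 higher and 4 lower (0.858% and 0.97% of all, 1.83% together). Colon minus ileum gave 0 higher and 4 lower, all of them Reg3a and Reg3g (1.55% and 1.72% of all, 3.28% together). In the colon, 0 were higher and 5 lower than in duodenum (3.34% and 2.65% of all, 5.99% together), and 0 higher and 6 lower than in jejunum (5.81% and 3.38% of all, 9.19% together). Set against the small-intestinal mean, 0 were higher and 7 lower in colon (4.44% and 3.13% of all, 7.57% together). At an unadjusted p below 0.05 in limma, only Reg2 165408_f_at was higher in colon than in ileum or jejunum. By the same threshold, only Reg3b 161890_f_at was higher in colon than in duodenum. No such difference passed after adjustment, and the share of all probe sets at the unadjusted threshold was not counted. Pools of the compared segments did not overlap for 8 Reg probe sets between jejunum and duodenum (14.1% of all), 6 between ileum and jejunum (16.5%), 4 between colon and ileum (18.8%), 8 between ileum and duodenum (15%), 7 between colon and duodenum (22.8%) and 6 between colon and jejunum (25.1%). Probe sets of 1 gene share their transcript, so these are not independent counts. The suffixes _f_at and _s_at mark probes that also match related transcripts, so some of the Reg3b signal at 96009_s_at, in particular, may belong to relatives.

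**Figure D4:**
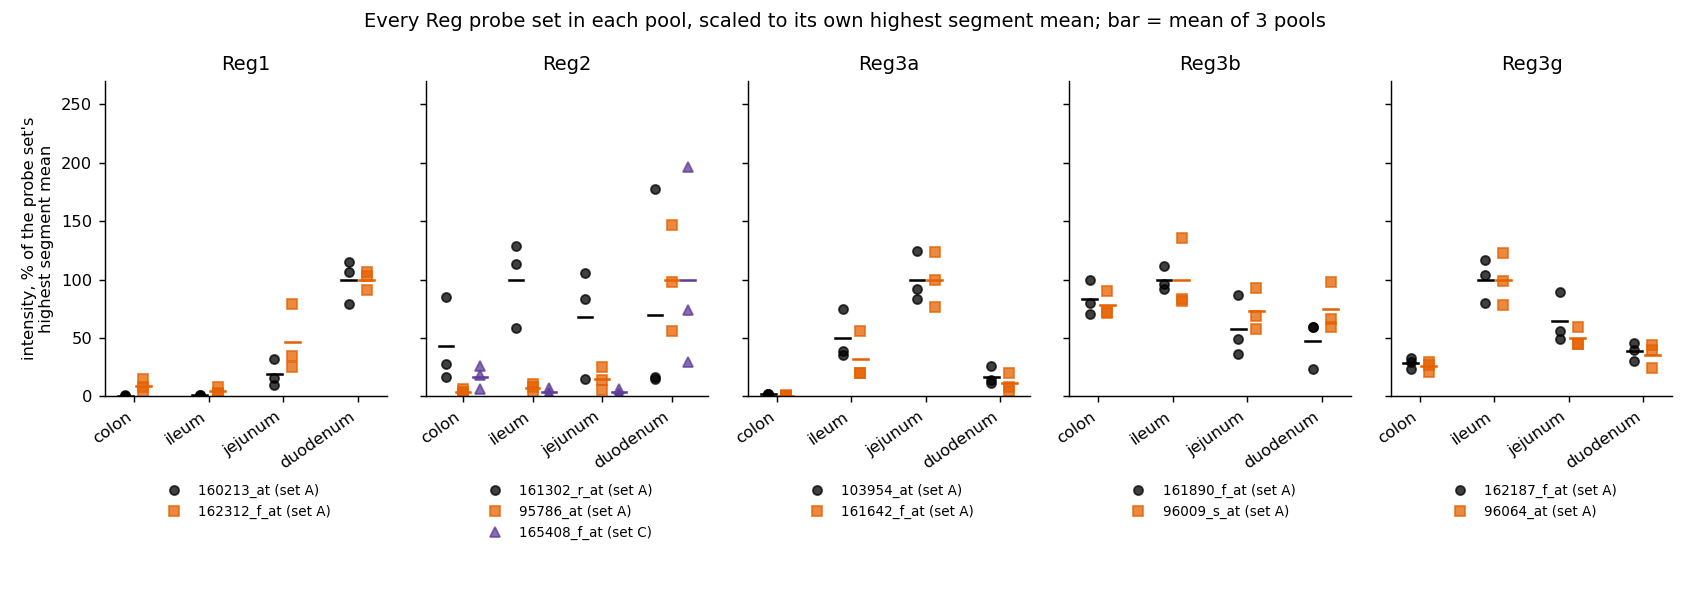
Intensity of all 11 Reg probe sets in each pool as a percentage of the probe set's own highest segment mean (bars are means of 3 pools). For Reg1, Reg3a and Reg3g the probe sets place the segments alike at the high end, whereas the Reg2 probe set 161302_r_at does not follow the other two.

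Reg3a and Reg3b, 2 genes of the same cluster with Reg3d between them, had their widest gap in the colon. Of all pairs of Reg genes by their brightest probe sets, this one had the largest change of gap between colon and small intestine. The log2 signal of 103954_at minus that of 96009_s_at was -8.08 to -7.79 in the 3 colon pools. In the 9 small-intestinal pools it was -5.76 to -2.18, with no overlap. Reg3a minus Reg3g did not overlap either, at -5.86 to -5.34 in colon and -3.95 to -0.58 in small intestine. For Reg3b minus Reg3g, the pair with the most similar promoters, the gap was 1.94 to 2.74 in colon and 0.39 to 1.94 in small intestine. Reg1 minus Reg2 by the brightest probe sets was 1.87 to 2.49 in colon and 1.38 to 6.89 in small intestine, with overlap. Levels of different probe sets are not comparable, so only the change of a gap between tissues has meaning, and it was not tested.

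Relatives of the family were measured as well. Of Reg3d, Reg4 (a marker of enteroendocrine and colonic crypt cells) and Extl3 (a glycosyltransferase known as a Reg receptor), 0 passed limma's test for any segment (2 at an unadjusted p below 0.05), where 13.7% of all genes did. Reg3d averaged 262 ± 43.2 units in colon, 222 ± 79.6 in ileum, 286 ± 196 in jejunum and 556 ± 114 in duodenum (jejunum minus duodenum -1.19 ± 0.46, adjusted p = 0.313), and its duodenum pools overlapped with those of the jejunum. Reg4 averaged 2047 ± 946 units in colon, 1635 ± 722 in ileum, 2976 ± 1031 in jejunum and 2667 ± 281 in duodenum. Extl3 averaged 254 ± 16.02 units in colon, 185 ± 30.1 in ileum, 141 ± 17.2 in jejunum and 161 ± 48.4 in duodenum, and 1 comparison passed, colon minus jejunum at 0.78 ± 0.22 (adjusted p = 0.0372).

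Paneth cells secrete Reg3g beside other antimicrobials, and genes of the Paneth list changed in both directions in the colon. Of 10 measured Paneth genes, 5 fell and 1 rose in colon against ileum (5.22% of all genes passed). The defensin Defa23 averaged 68.8 ± 7.08 units in colon, 20971 ± 2862 in ileum, 23485 ± 4146 in jejunum and 22598 ± 2732 in duodenum. The protease Mmp7, which activates defensins, averaged 22.1 ± 12.7 units in colon, 864 ± 121 in ileum, 663 ± 132 in jejunum and 299.6 ± 53.3 in duodenum. Mptx1, a pentraxin, ran the other way, with 5826 ± 2501 units in colon and 465 ± 160.1 in ileum (3.54 ± 0.36, adjusted p = 1.71e-05). As a share of the highest segment mean, the colon had 25.7% for Reg3g and 78.1% for Reg3b by their brightest probe sets. Of the 10 Paneth genes, 5 stood at 0.293% to 13.3% in the colon, 1 stood at 68.2% and 4 had their highest mean there. The summed signal of the list was 16000.2 to 35879 units in colon and 56634 to 66906 in ileum. It was 59919 to 73944 in jejunum and 45854 to 54261 in duodenum, and its part in the Reg3 values was not tested. Itln1 (9830 ± 2754 units), Ang4 (9566 ± 5053) and Mptx1 had the largest colon means of the list. Itln1 and Ang4 are named after their values were seen. The colon sum thus does not follow the defensin Defa23.

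Most measured markers of absorptive enterocytes, the other source of Reg3 lectins, also fell in the colon. Of 12 measured enterocyte genes, 10 were lower and 0 higher in colon than in ileum (5.22% of all genes passed). Krt20 (adjusted p = 0.597) and Sis (0.995), named after their values were seen, did not pass. They stood at 79.6% and 85.6% of their highest segment mean in colon. Apoa1, an apolipoprotein of dietary fat transport, averaged 26.9 ± 11.2 units in colon and 23513 ± 7514 in ileum, and the aminopeptidase Anpep averaged 189 ± 25.7 units in colon and 12208 ± 2594 in ileum. Reg3a had its maximum in the jejunum, with 49.8% of it in ileum and 16.9% in duodenum. Anpep, with 12767 ± 721 units in jejunum and 3974 ± 391 in duodenum, stood at 95.6% of its jejunal mean in ileum and at 31.1% in duodenum. Of the segment markers, 5 of 5 measured passed the test for any segment, among them Fabp6, the ileal bile acid binding protein, with 10664 ± 1998 units in ileum and at most 116 units elsewhere, and the colonic carbonic anhydrase Car1 with 14650.3 ± 2469 units in colon and at most 43.7 elsewhere.

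**Figure D5:**
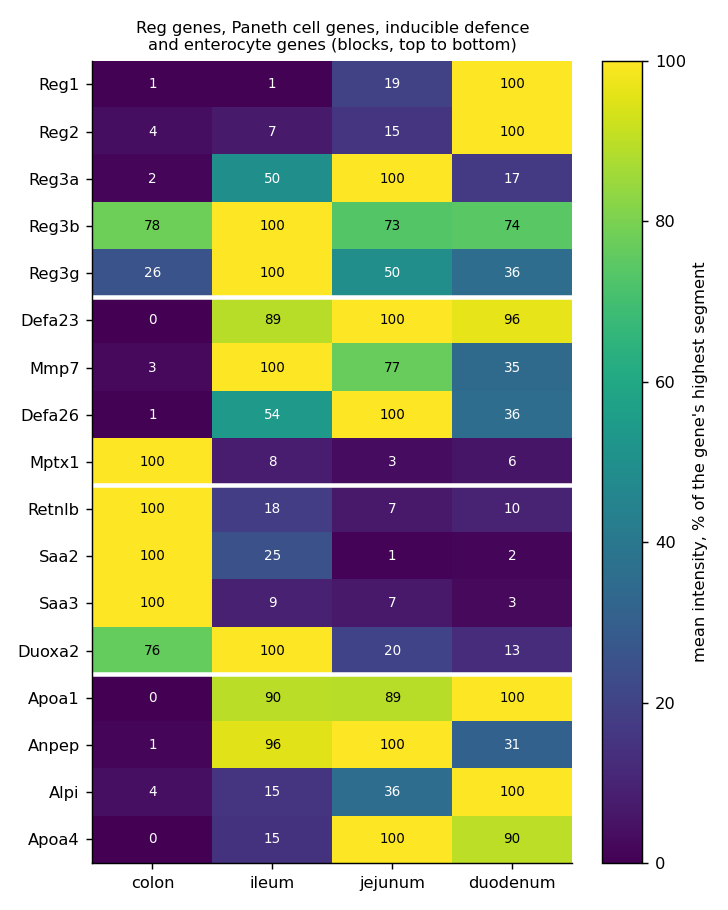
Mean intensity in each segment as a percentage of the gene's highest segment mean, for 5 Reg genes and, below them, 4 genes each of Paneth cells, inducible mucosal defence and enterocytes. At these probe sets Reg3b is at 73.1% or more in every segment (its second probe set is at 47.5% in duodenum), Reg3g is at 25.7% in colon and Reg3a at 1.61%.

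Other defence genes that respond to bacteria had their highest means in different segments, 5 of 16 measured in colon, 7 in ileum, 1 in jejunum and 3 in duodenum. Of the 16, only 5 passed the test for any segment, where 13.7% of all genes did. For the rest the segment of the highest mean is within the error. In colon against ileum 3 rose and 0 fell (5.22% of all genes passed). Retnlb, a goblet cell protein active against Gram-negative bacteria, averaged 23125 ± 5558 units in colon, 4158 ± 362 in ileum, 1571 ± 279 in jejunum and 2304 ± 290.1 in duodenum (colon minus ileum 2.45 ± 0.19, adjusted p = 7.11e-07). The serum amyloid gene Saa2 averaged 3892 ± 496 units in colon, 966 ± 228 in ileum, 39.5 ± 40.0 in jejunum and 67.2 ± 35.1 in duodenum (colon minus ileum 2.01 ± 0.40, adjusted p = 0.00938). Duoxa2, a maturation factor of an epithelial oxidase, averaged 594 ± 149.6 units in colon and 777 ± 268 in ileum, against 155 ± 92.6 in jejunum and 98.97 ± 3.41 in duodenum. In ileum against jejunum 3 of the 16 rose and 0 fell (4.48% of all genes passed). They were Retnlb (1.41 ± 0.19, adjusted p = 0.000746), Saa2 (4.35 ± 0.40, adjusted p = 2.24e-05) and Duoxa2 (2.36 ± 0.45, adjusted p = 0.0131). For Reg3g this difference passed at 96064_at only, and that call was lost in several alternatives run. Of 12 goblet cell genes, which include Retnlb, 4 rose and 1 fell in colon against ileum (5.22% of all genes passed), with the mucin Muc2 at 22039.9 ± 4902 units in colon and 4045 ± 876 in ileum.

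Genes of the pathways known to act upstream of Reg3b and Reg3g were compared between neighbouring segments. Of 16 measured genes of the IL-22 and STAT3 pathway, 0 passed limma's test in colon against ileum (2 at an unadjusted p below 0.05, and 5.22% of all genes passed), and in ileum against jejunum 1 rose and 1 fell (4.48% of all genes passed). The one that rose was the shared cytokine receptor Il6st, with 158 ± 45.4 units in ileum and 56.6 ± 24.7 in jejunum (1.28 ± 0.29, adjusted p = 0.0300), and the one that fell was the cytokine Il18, with 95.2 ± 84.8 units in ileum and 349 ± 80.1 in jejunum (-2.03 ± 0.43, adjusted p = 0.0197). Of 16 Toll-like receptor and MyD88 genes, 2 rose and 1 fell in colon against ileum, where 5.22% of all genes passed. Tlr1, a receptor of bacterial lipopeptides, averaged 464 ± 125 units in colon and 85.1 ± 73.4 in ileum (2.64 ± 0.59, adjusted p = 0.0170), and Ticam1, the adaptor used beside MyD88, averaged 63.9 ± 43.3 units in colon and 261 ± 64.9 in ileum (-1.89 ± 0.45, adjusted p = 0.0264). The other gene that rose was Tlr6, with 94.6 ± 4.56 units in colon and 33.4 ± 13.4 in ileum (1.20 ± 0.30, adjusted p = 0.0425). Cd14, a co-receptor of bacterial lipopolysaccharide, did not pass in colon against ileum (0.70 ± 0.21, adjusted p = 0.103). It averaged 1837 ± 554 units in colon, 1100.5 ± 169.8 in ileum, 838 ± 142 in jejunum and 723 ± 35.1 in duodenum.

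The genes whose pattern was most like that of each Reg gene were found by Pearson correlation of log2 values over the 12 pools among 10973 genes, which is a description and rests largely on the differences between the 4 segments. Reg1 was most like the carboxylesterase Ces2g (r = 0.973), Enpp3 (0.970), an ectonucleotidase with 72.4 units in colon, 74.0 in ileum, 1751 in jejunum and 5186 in duodenum, and Uqcrq (0.968). Reg2 was most like the iron transporter Slc11a2 (r = 0.947), Pcyt1a (0.930) and 4833438C02Rik (0.929). Reg3a was most like Tmem86a (r = 0.986), whose means were 45.7 units in colon, 1012 in ileum, 2911 in jejunum and 470 in duodenum, followed by the dipeptidase Pepd (0.970) and the vitamin B12 carrier Tcn2 (0.967). Reg3g was most like the proline dehydrogenase Prodh (r = 0.931), Zfp112 (0.919) and Madcam1 (0.917), the adhesion molecule of gut vessels. For Reg3b, whose segments overlapped, the closest were Mettl7a1 (r = 0.894), Cryge (0.892) and Rasgrp2 (0.884).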

How the data were processed

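The tables hold the authors' deposited intensity values on a linear scale, 36 arrays with 1 column each, and the labels name no unit. After leaving out the top and bottom 2%, every array had a mean close to 200 (199.9 to 200.0), so the authors scaled them to a common mean. The software used is not given in the sources used here. Array medians ran between 48.6 and 75.3 units on set A, between 85.8 and 110.5 on set B and between 85.9 and 104.9 on set C. Precision is limited by how many arrays there are. No detection calls were used. Control probe sets (66 per array set) were left out of tests.

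An offset of 16 was added before log2 was taken, which makes differences of dim probe sets smaller. Each array set was fitted with limma 3.58.1 in R 4.3.3, 1 mean per segment over its 12 arrays, moderated variances with an intensity trend, and Benjamini-Hochberg adjustment over the 3 sets together. The threshold for a call was an adjusted p below 0.05. The fit was tested on simulated data.

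Symbols came from the platform annotation (29131 probe sets with 1 symbol, 724 with several, 6846 with none), updated through RefSeq, where 29044 matched. All member probe sets are named, with up to 4 genes per list by smallest adjusted p for any segment (other list genes are given as counts), and the 3 genes most like each member. A list gene is represented by its brightest probe set on array set A, else B, else C. The lists were Reg relatives, exocrine pancreas, stomach, Paneth cell, goblet cell, absorptive enterocyte, segment markers, IL-22 and STAT3 signalling, Toll-like receptor and MyD88 signalling, and other inducible mucosal defence. The members and lists were chosen with earlier results of these data known. Sequences were aligned with Biopython 1.88.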

Additional observations from a re-analysis of the deposited data

How the results depend on the processing

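Results were recomputed under 23 alternatives: other offsets, a filter on dim probe sets, median centring, quantile normalization, no intensity trend, the replicate block, the 18S class as a block, the 8 samples with high 18S signal, fits to the arrays of 2 segments, the array with conflicting labels left out, and each of 12 samples left out. Of 1760 values for single probe sets, 1654 kept their direction and side of the threshold, 61 lost a call, 13 gained one, and 32 changed sign, none of them a called value.

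Jejunum minus duodenum called 5 Reg probe sets, against 3 with the 18S class as a block, 1 among the 8 high-18S samples, and 3 to 6 with single samples left out. Ileum minus jejunum called 4, against 2 without the intensity trend, 1 among the 8 high-18S samples, 2 with the arrays of the 2 segments alone, and 1 to 5 with single samples left out. The cause was not tested. The shares of all probe sets called under these alternatives are not given here. A loss of Reg calls therefore cannot be told from a general loss of calls. Counts for the other comparisons stayed within 1.5 times under all alternatives run.

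The sign changes belong to small differences. For Reg3b 96009_s_at, jejunum minus duodenum was 0.15 with median centring, 0.17 with quantile normalization, 0.41 with the 18S class as a block, 0.35 among the 8 high-18S samples and -0.21 to 0.20 with single samples left out. Its colon minus duodenum was -0.062 with median centring (-0.055 to 0.31 with samples left out), and colon minus ileum was 0.0095 with quantile normalization. Its colon minus jejunum was -0.21 with median centring, -0.31 with the 18S class as a block, -0.26 among the 8 high-18S samples and -0.039 to 0.30 with samples left out, while colon against the mean of the small intestine gave 0.31 with quantile normalization and -0.15 to 0.041 with samples left out. With samples left out, Reg3b 161890_f_at gave -0.15 to 0.58 for jejunum minus duodenum, Reg2 165408_f_at -0.25 to 0.48 for ileum minus jejunum, and Reg2 161302_r_at -0.14 to 1.12 for jejunum minus duodenum and -0.59 to 0.68 for colon minus duodenum. Reg1 162312_f_at gave -0.21 for colon minus ileum with the 18S class as a block.

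Pool numbers were not used as pairs, because the labels do not say that equal numbers are the same mice. Deviations of same-numbered samples correlated by -0.44 to 0.44 over 54 pairs (median 0.0153). For colon and ileum they ranged from 0.0217 to 0.245, and for ileum and jejunum from -0.436 to 0.247, so the median does not describe each pair of segments. With the replicate block, 8 Reg probe sets were called for any segment, 5 for jejunum minus duodenum, 5 for ileum minus jejunum and 4 for colon minus ileum. The same block called 8 for ileum minus duodenum, 6 for colon minus duodenum, 6 for colon minus jejunum and 7 for colon against the small-intestinal mean. The shares of all probe sets called with this block are not given here. Signal over background limits the dim probe sets, Reg2 and Reg1 162312_f_at above all.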

Other observations

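For actin the 3′ probe signal over the 5′ probe signal, a measure of RNA quality, differed between segments on array set A, at 1.30 to 1.43 in colon, 1.14 to 1.20 in ileum, 1.28 to 1.55 in jejunum and 1.41 to 1.84 in duodenum. The ileum, where Reg3g was highest, thus had the lowest ratios, and the part of RNA quality in the Reg values was not tested.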
